A study of Mus musculus with 10 samples.

Results

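Expression of 8 genes of nitric oxide and arginine metabolism was examined in myeloid cells of tumor-bearing mice with and without a myeloid deletion of SHP-2. The genes were Nos2, Arg1, Arg2, Ass1, Asl, Slc7a2, Odc1 and Gch1. They were chosen by name as the core of the pathway, with earlier results of these data known. All 8 were found among the 55421 genes of the count table. L-arginine enters the cell through cationic amino acid carriers such as that encoded by Slc7a2. Nos2 encodes the inducible nitric oxide synthase, which turns arginine into nitric oxide and citrulline. Arg1 and Arg2 encode the cytosolic and the mitochondrial arginase, which turn arginine into ornithine and urea. Ass1 (argininosuccinate synthase) and Asl (argininosuccinate lyase) rebuild arginine from citrulline. Odc1 encodes ornithine decarboxylase, the first enzyme of polyamine synthesis, and Gch1 encodes GTP cyclohydrolase, the first enzyme in the synthesis of tetrahydrobiopterin, the cofactor of nitric oxide synthases. In macrophages, nitric oxide is known for cytotoxic activity, and arginases are known for consuming the arginine that T cells need.

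RNA was sequenced from 4 groups of mice, 8 to 12 weeks old, that carried MC17-51 fibrosarcomas (called M17 in the labels) and were analysed at day 15 after implantation. All groups carried floxed alleles of Ptpn11, the gene of SHP-2. Shp2f/f mice carried these alleles alone and served as controls, and Shp2f/fLysMcre mice also expressed Cre recombinase under the lysozyme M promoter, which is active in myeloid cells. GR-1+ myeloid-derived suppressor cells (MDSCs) from the spleen gave 2 libraries per genotype, and tumor-associated macrophages (TAMs) sorted from the tumors gave 3 libraries per genotype. In the study both cell types were taken from the same mice. The labels do not say whether a library is 1 animal or a pool, so the p-values measure only the spread between these samples.

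Total counts were 33262119 to 36541823 in the MDSC libraries and 28844660 to 38222998 in the TAM libraries. Levels are given as CPM, the counts scaled to library size, after scaling over all 10 libraries. In TAMs, Ptpn11 was at 121 to 125 CPM in Shp2f/f libraries and at 50.9 to 54.2 CPM in Shp2f/fLysMcre libraries (log2 fold change -1.24 ± 0.04 SE, adjusted p = 3.0e-09, edgeR). In MDSCs, Ptpn11 was at 99.2 and 113 CPM against 79.7 and 94.7 CPM, a difference that did not pass the test (log2 fold change -0.29 ± 0.14 SE, adjusted p = 0.36, edgeR). Lyz2, whose locus carries the Cre in this type of mouse, was at 8960 to 9457 CPM in MDSC Shp2f/f and at 43.3 to 47.1 CPM in MDSC Shp2f/fLysMcre libraries. In TAMs it was at 3435 to 3664 CPM in Shp2f/f and at 9.37 to 12.6 CPM in Shp2f/fLysMcre libraries. The lower Lyz2 and the presence of Cre cannot be told apart from the deletion of Ptpn11 in any genotype comparison. Sex-linked transcripts differed between the genotypes. The female transcript Xist had 1 count in each MDSC Shp2f/f library and 4759 to 4875 counts in MDSC Shp2f/fLysMcre libraries. In TAMs it had 185 to 665 against 6465 to 10395 counts. The Y-linked transcript Ddx3y had 1754 to 1886 against 891 to 1026 counts in MDSCs. Its TAM values were 2828 to 3139 against 1194 to 1318 counts. MDSC Shp2f/fLysMcre and TAM libraries thus mixed male and female material, and whether they were pools of mice was not tested. Sex composition and genotype cannot be told apart. In MDSC Shp2f/fLysMcre replicate 2, the summed level of 7 fibroblast or fibrosarcoma markers was 635 CPM, against 7.10 to 25.7 CPM in the other 3 MDSC libraries.

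Markers of both neutrophils and monocytes were abundant in the MDSC libraries. The 8 neutrophil markers summed to 8654 to 8768 CPM in Shp2f/f and to 20670 to 23235 CPM in Shp2f/fLysMcre MDSCs, and 4 of the 8 passed the test as higher. The 5 monocyte markers summed to 6146 to 6476 CPM and to 4116 to 5430 CPM, respectively, and 0 of the 5 passed the test. In TAMs the monocyte markers summed to 2376 to 2420 CPM in Shp2f/f and to 2629 to 2708 CPM in Shp2f/fLysMcre libraries. Of these 5, 3 passed as higher and 1 as lower. In TAMs, the 8 macrophage markers summed to 8821 to 9110 CPM in Shp2f/f and to 12858 to 13263 CPM in Shp2f/fLysMcre libraries, and 8 of 8 passed as higher. The 6 T cell markers summed to 8.92 to 9.84 CPM against 3.57 to 4.01 CPM, and the 4 NK cell markers to 12.8 to 15.1 CPM against 6.52 to 7.04 CPM. All 6 T cell and all 4 NK cell markers passed as lower in Shp2f/fLysMcre TAMs. Of the dendritic cell markers, 3 of 4 tested passed as lower there. Neutrophil markers summed to 301 to 311 CPM in Shp2f/f and to 440 to 466 CPM in Shp2f/fLysMcre TAMs (6 of 7 tested passed as higher), and endothelial markers to 71.4 to 74.8 CPM and 105 to 111 CPM (3 of 4 higher). Erythroid markers passed as higher for 3 of 5 tested in TAMs, at summed levels of 5.03 to 11.4 CPM, and for 5 of 7 in MDSCs, at 216 to 246 CPM in Shp2f/f and 410 to 606 CPM in Shp2f/fLysMcre. Of 5 B cell markers, 2 passed as lower in MDSCs (27.5 to 36.6 CPM against 17.4 to 17.6 CPM summed), and 1 of 3 passed as higher in TAMs. Of 7 fibroblast markers in TAMs, 1 passed as higher and 1 as lower, and in MDSCs 1 of 8 macrophage markers passed as lower. No macrophage, neutrophil or monocyte marker was at 0 throughout a group. These shifts accompany every difference between genotypes given here, and their part in those differences was not tested. In bulk RNA, fewer cells of a type and less RNA per cell cannot be told apart.

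In TAMs, 6 of the 8 genes differed between genotypes, where 50.2% of the 14446 genes tested did. Nos2, Arg2, Slc7a2, Arg1 and Odc1 rose in Shp2f/fLysMcre TAMs, where 23.9% of all genes tested did so, and Ass1 fell, where 26.3% did so. Genes were called at an adjusted p under 0.05 in the quasi-likelihood F test of edgeR. Asl and Gch1 did not pass. Over the whole table, 3452 genes were called higher and 3805 lower. With libraries scaled by total counts alone, these numbers were 2341 and 5225, and the median over all genes tested moved from -0.01 to -0.11 (log2).

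**Figure D1:**
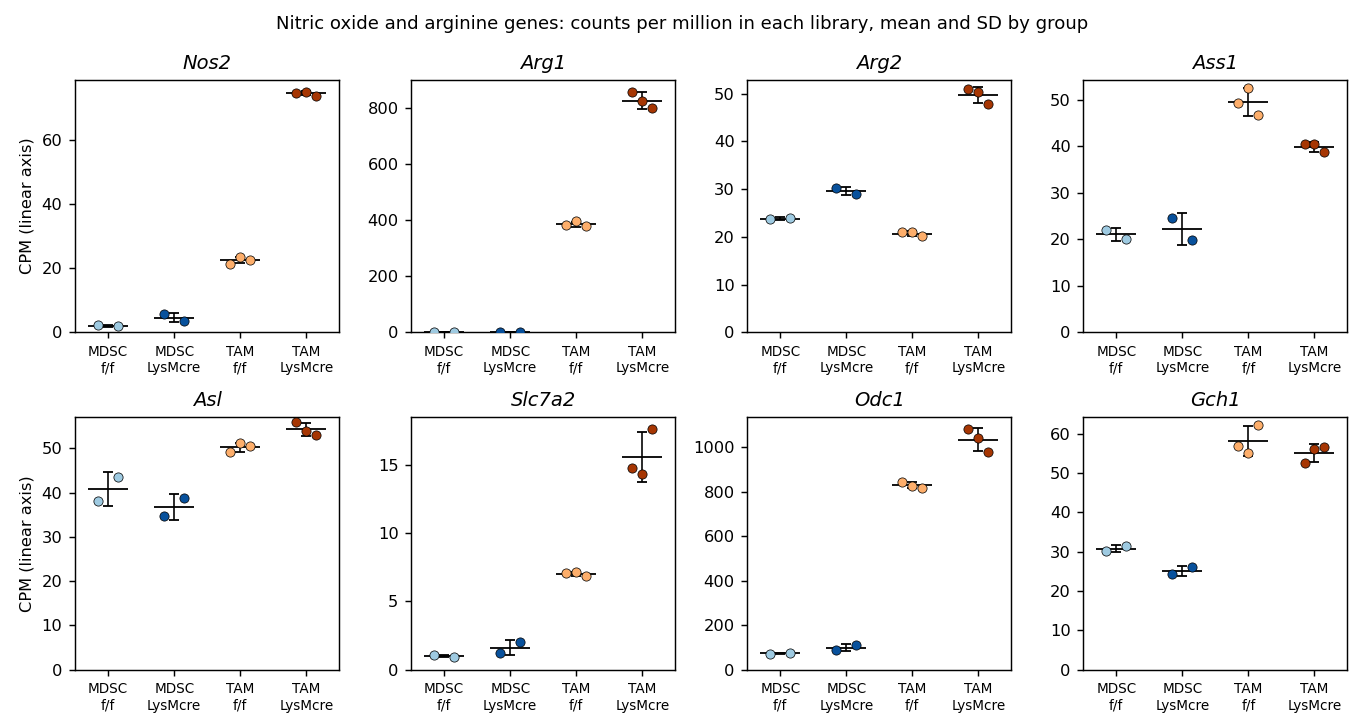
Level (CPM, linear axis from 0, a separate scale for each gene) in each library of the 4 groups, with points for libraries, horizontal lines for group means and bars for the SD (n = 2 for MDSC groups, n = 3 for TAM groups). All TAM Shp2f/fLysMcre points lie above the TAM Shp2f/f points for Nos2, Arg1, Arg2, Slc7a2, Odc1 and Asl, and below them for Ass1. Arg1 lies near 0 in the 4 MDSC libraries.

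Nos2 had the largest log2 fold change of the 8 genes in TAMs. It was at 21.4, 23.3 and 22.6 CPM in the Shp2f/f libraries and at 74.5, 74.8 and 73.7 CPM in the Shp2f/fLysMcre libraries. The groups did not overlap, and the spread within each group was small relative to the gap. The rise was 3.23-fold (log2 fold change 1.69 ± 0.04 SE, adjusted p = 2.2e-09, edgeR). In MDSCs, Nos2 was at 2.23 and 1.85 CPM in Shp2f/f and at 5.63 and 3.58 CPM in Shp2f/fLysMcre libraries, from 64 to 77 and 143 to 208 counts. Both Shp2f/fLysMcre libraries were above both controls, but they were far apart from each other, and the difference did not pass the test (log2 fold change 1.17 ± 0.31 SE, adjusted p = 0.11, edgeR). The value was 1.47 without MDSC Shp2f/fLysMcre replicate 2, the library with fibroblast transcripts, and 0.77 without replicate 1. Each of these rests on a single Shp2f/fLysMcre library, which is assumed to vary like the 2 controls, and is given as a value and not as a call. The genotype effect on Nos2 did not differ by the test between TAMs and MDSCs (interaction 0.56 ± 0.23 SE, adjusted p = 0.11, edgeR).

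Arg1 was abundant in TAMs and nearly undetected in MDSCs. The Shp2f/f TAM libraries were at 381, 396 and 378 CPM, and the Shp2f/fLysMcre libraries at 857, 823 and 797 CPM. Every Shp2f/fLysMcre library was thus well above every control. The rise was 2.09-fold (log2 fold change 1.07 ± 0.04 SE, adjusted p = 8.3e-09, edgeR). The 4 MDSC libraries held only 5 to 12 counts of Arg1, at 0.135 to 0.301 CPM, the genotypes overlapped, and the gene was below the count filter in the MDSC comparison. A genotype difference in MDSCs was therefore not detectable at this depth.

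Of the 8 genes, only Arg2 passed the interaction test, which asks whether TAMs and MDSCs responded unequally. In TAMs it was at 21.04, 20.92 and 20.12 CPM in Shp2f/f and at 50.9, 50.3 and 47.7 CPM in Shp2f/fLysMcre libraries. The groups were far apart, and Arg2 rose 2.34-fold (log2 fold change 1.23 ± 0.05 SE, adjusted p = 9.1e-09, edgeR). In MDSCs it was at 23.7 and 24.0 CPM in Shp2f/f and at 30.1 and 29.1 CPM in Shp2f/fLysMcre libraries. These groups did not overlap either, but the difference did not pass (log2 fold change 0.31 ± 0.11 SE, adjusted p = 0.21, edgeR). The effect was larger in TAMs by 0.95 ± 0.08 (SE) on the log2 scale (adjusted p = 4.8e-05, edgeR), and this difference passed in all alternatives and with each library left out. For the interaction, 24.9% of 16581 genes passed.

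The Arg2 locus (chromosome 12, 79130777 to 79156301, GRCm38, plus strand) shares exonic bases with genes on the other strand. Exons of Vti1b cover 285 bases, or 19.96%, of the exon length of Arg2, and those of the antisense gene Gm48780 cover 116 bases, or 8.12%. The libraries were stranded, but the strand setting of the counting was not stated in the sources used here, so reads from the shared bases are uncertain. Neither neighbour passed the test in TAMs. The values were -0.04 ± 0.05 (log2 fold change ± SE) for Vti1b, which encodes a vesicle fusion protein, and -0.04 ± 0.31 for Gm48780, at only 14 to 24 counts per TAM library. No exon of another annotated gene overlapped the other 7 genes.

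Slc7a2, the gene of the inducible arginine carrier CAT2, was the least abundant of the 8 per length in TAMs. It was at 7.07, 7.14 and 6.84 CPM in Shp2f/f TAMs and at 14.8, 14.3 and 17.7 CPM in Shp2f/fLysMcre TAMs. The highest library, replicate 3, stood above the other 2 of its group, and all 3 were above the controls. Slc7a2 rose 2.16-fold (log2 fold change 1.11 ± 0.09 SE, adjusted p = 1.9e-06, edgeR). In MDSCs it had 33 to 80 counts per library, at 1.04 and 0.952 CPM in Shp2f/f and 1.246 and 2.004 CPM in Shp2f/fLysMcre libraries. The higher of these was replicate 2, the library with fibroblast transcripts, and the difference did not pass (log2 fold change 0.69 ± 0.34 SE, adjusted p = 0.35, edgeR).

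The pair of enzymes that rebuild arginine from citrulline did not move together in TAMs. Ass1 was at 49.3, 52.7 and 46.7 CPM in Shp2f/f TAMs and at 40.4, 40.5 and 38.7 CPM in Shp2f/fLysMcre TAMs. All Shp2f/fLysMcre libraries were below all controls, and Ass1 was 1.27-fold lower (log2 fold change -0.35 ± 0.05 SE, adjusted p = 0.00013, edgeR). Asl was at 49.2, 51.1 and 50.5 CPM and at 55.9, 53.9 and 53.0 CPM, respectively. Although these groups did not overlap, the difference was small and did not pass (log2 fold change 0.08 ± 0.04 SE, adjusted p = 0.15, edgeR), and its sign turned with scaling by total counts. In MDSCs the genotypes overlapped for both genes. Ass1 was at 22.03 and 20.13 CPM against 24.65 and 19.86 CPM (log2 fold change 0.07 ± 0.15 SE), and Asl at 38.02 and 43.56 CPM against 34.72 and 38.80 CPM (log2 fold change -0.16 ± 0.12 SE).

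Odc1 was abundant in TAMs of both genotypes. It was at 844, 826 and 816 CPM in Shp2f/f TAMs and at 1080, 1042 and 980 CPM in Shp2f/fLysMcre TAMs. The groups did not overlap, but the rise was modest, at 1.22-fold (log2 fold change 0.28 ± 0.04 SE, adjusted p = 0.00012, edgeR). In MDSCs, Odc1 was at 70.7 and 75.5 CPM in Shp2f/f and at 88.3 and 111 CPM in Shp2f/fLysMcre libraries. Both Shp2f/fLysMcre libraries were above the controls, the higher one being replicate 2, and the difference did not pass (log2 fold change 0.44 ± 0.14 SE, adjusted p = 0.18, edgeR).

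Gch1 did not follow Nos2, whose enzyme uses its end product. It was at 56.9, 55.0 and 62.3 CPM in Shp2f/f TAMs and at 52.5, 56.1 and 56.5 CPM in Shp2f/fLysMcre TAMs. The genotypes overlapped, and the difference did not pass (log2 fold change -0.11 ± 0.06 SE, adjusted p = 0.12, edgeR). With libraries scaled by total counts it was -0.21 and passed (adjusted p = 0.011). In MDSCs, Gch1 was at 30.1 and 31.5 CPM in Shp2f/f and at 24.29 and 26.05 CPM in Shp2f/fLysMcre libraries, with no overlap. This difference did not pass either (log2 fold change -0.30 ± 0.11 SE, adjusted p = 0.22, edgeR).

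In MDSCs, none of the 7 genes tested was called by edgeR, where 4.28% of 14806 genes were. At an unadjusted p under 0.05 in edgeR there were 4 of 7, namely Nos2, Arg2, Odc1 and Gch1, where 2859 of 14806 genes were. These 4 were also called when all 10 libraries shared 1 estimate of the spread, where 2666 of 16581 genes were. DESeq2 called 1 of them, Nos2 (adjusted p = 0.049), where it called 1256 of 14806 genes. The genotypes did not overlap for 5 of the 7, where 48.9% of all genes tested did not. In TAMs they did not overlap for 7 of the 8, where 57.9% of all genes tested did not. The median log2 fold change was 0.31 over the 7 genes in MDSCs and 0.67 over the 8 genes in TAMs, beside -0.01 over all genes tested in each cell type.

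**Figure D2:**
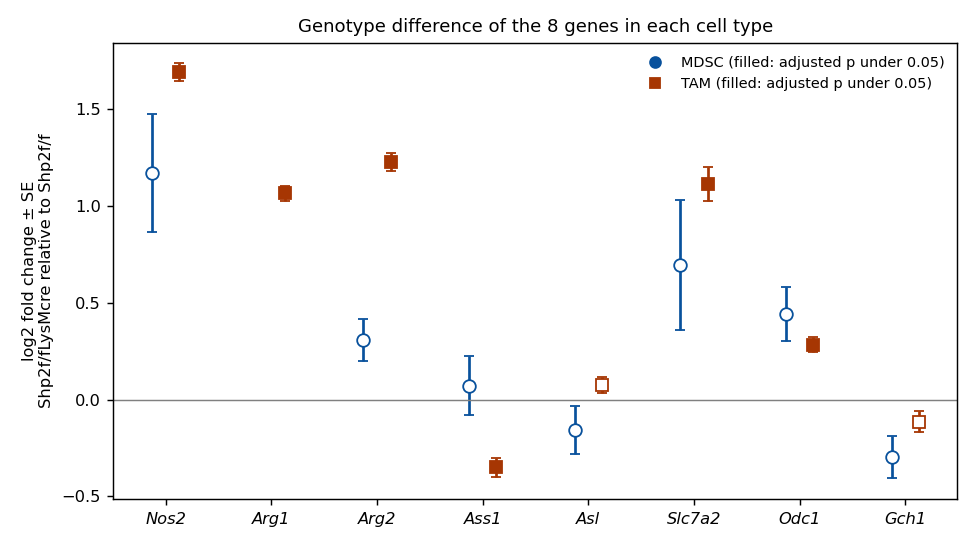
Log2 fold change of Shp2f/fLysMcre relative to Shp2f/f with its standard error for each gene, in MDSCs (circles, 2 against 2 libraries) and TAMs (squares, 3 against 3 libraries), with filled symbols for an adjusted p under 0.05 in edgeR. The TAM squares are filled for 6 genes and the MDSC circles for none, and Arg1 has no MDSC value because it was below the count filter.

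The 8 genes also differed between the preparations. In Shp2f/f mice, 7 of the 8 genes were higher in tumor TAMs than in spleen MDSCs, where 35.1% of all genes tested were, and 1 of 8, Arg2, was lower, where 34.6% were. Tissue, isolation and cell type differed together, so they cannot be told apart in this contrast. Arg1 showed the largest difference, 10.97 ± 0.17 (SE) on the log2 scale. Its value rested on 8 and 5 counts in the MDSC Shp2f/f libraries and was 10.67 to 11.35 with a library left out. The SE of 0.17 is too narrow for counts this low. Next came Odc1 at 3.503 ± 0.108 (SE), Nos2 at 3.46 ± 0.17 and Slc7a2 at 2.81 ± 0.21. Ass1 (1.23 ± 0.10), Gch1 (0.92 ± 0.07) and Asl (0.30 ± 0.07) differed less. The value for Asl was 0.21 to 0.40 with a library left out, lowest without MDSC Shp2f/f replicate 1. Arg2 was slightly lower in TAMs, by -0.20 ± 0.06 (SE) on the log2 scale (adjusted p = 0.011, edgeR), and no longer passed when either MDSC Shp2f/f library was left out (adjusted p = 0.058 and 0.081). In Shp2f/fLysMcre mice, Arg2 was instead higher in TAMs, by 0.75 ± 0.06 (SE) on the log2 scale (adjusted p = 2.0e-06, edgeR), and all 8 genes were higher in TAMs, where 32.3% of all genes tested were.

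Levels of different genes were compared per length, as CPM per kilobase of annotated exon. In Shp2f/f MDSCs, Odc1 (21.5 ± 1.01 SD, n = 2) and Arg2 (16.7 ± 0.157) led, followed by Ass1 (8.73 ± 0.555) and Asl (8.44 ± 0.810), which did not differ beyond their spread. Gch1 was at 4.92 ± 0.155, and Nos2, Slc7a2 and Arg1 were at 0.462, 0.109 and 0.0845 CPM per kilobase. In Shp2f/f TAMs the order was Odc1 (243 ± 4.11 SD, n = 3), Arg1 (173 ± 4.27), Ass1 (20.5 ± 1.23), Arg2 (14.5 ± 0.352), Asl (10.4 ± 0.208), Gch1 (9.29 ± 0.601), Nos2 (5.09 ± 0.223) and Slc7a2 (0.768 ± 0.0171). In Shp2f/fLysMcre TAMs, Arg1 (371 ± 13.4 SD, n = 3) stood above Odc1 (304 ± 14.8), followed by Arg2 (34.8 ± 1.19). Nos2 (16.9 ± 0.137) and Ass1 (16.5 ± 0.413) were then level within their spread.

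**Figure D3:**
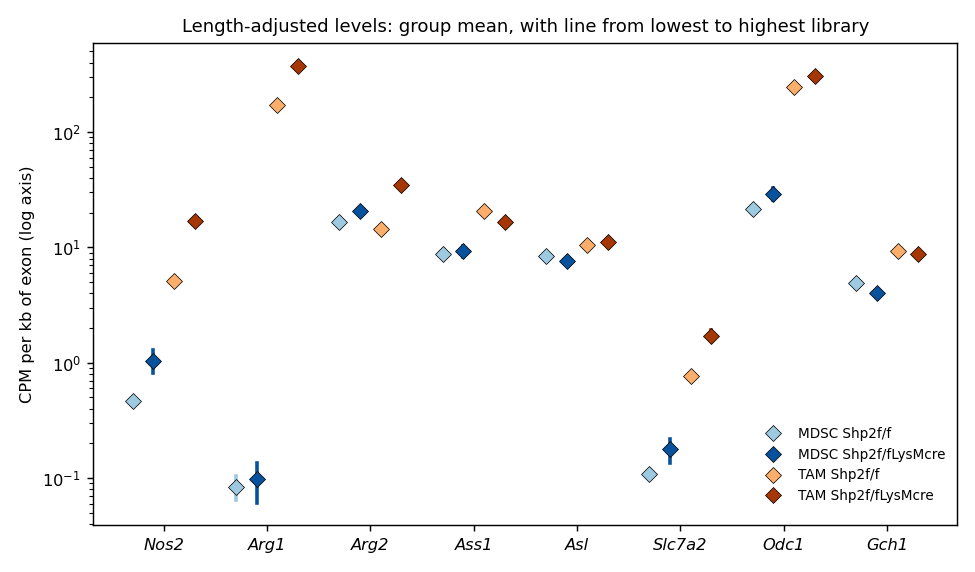
Levels of the 8 genes per length (CPM per kilobase of annotated exon, log axis) in the 4 groups, with diamonds for group means and vertical lines from the lowest to the highest library. The group means of Arg1 span from 0.0845 in MDSC Shp2f/f to 371 in TAM Shp2f/fLysMcre, while those of Arg2, Ass1 and Asl stay within 7.61 to 34.8.

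Arginase transcripts came from different genes in the 2 preparations. Arg2 made up 99.3% to 99.7% of the summed Arg1 and Arg2 level per kilobase in MDSC libraries and 7.62% to 8.71% in TAM libraries. The summed level was 16.8 ± 0.129 CPM per kilobase in Shp2f/f and 20.8 ± 0.475 in Shp2f/fLysMcre MDSCs (SD, n = 2), and 187 ± 4.46 in Shp2f/f and 405 ± 14.5 in Shp2f/fLysMcre TAMs (SD, n = 3). Within each TAM library, Nos2 relative to the summed arginases was -5.26, -5.18 and -5.17 (log2 ratio per length) in Shp2f/f and -4.64, -4.58 and -4.55 in Shp2f/fLysMcre. Both arms were thus higher in Shp2f/fLysMcre TAMs, with the larger difference on the Nos2 side, and arginase transcripts still exceeded Nos2 in every library.

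In addition to the 8 genes, 64 genes of 9 related lists were examined, of which 51 were tested in TAMs and 52 in MDSCs. In TAMs, 22 of 51 were higher in Shp2f/fLysMcre, where 23.9% of all genes tested were, and 17 were lower, where 26.3% were, with a median log2 fold change of 0.09. In MDSCs, edgeR called 0 of the 52 as higher, where 3.76% of all genes tested were, and 0 as lower, where 0.52% were. At an unadjusted p under 0.05 in edgeR there were 13 of 52, where 2859 of 14806 genes were. DESeq2 called 2 of the 52, where it called 1256 of 14806 genes.

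Among 6 further genes of tetrahydrobiopterin synthesis and recycling, 5 were tested in TAMs, of which 3 passed as lower, where 26.3% of all genes did, and 1 as higher, where 23.9% did (median log2 fold change -0.36). Those called lower were Spr (-0.47), which encodes sepiapterin reductase, Qdpr (-0.36), which encodes the reductase that recycles the cofactor, and Pcbd1, a gene at low level. Pcbd1 was at 0.326, 0.365 and 1.99 CPM in Shp2f/f TAMs and at 0.0646 to 0.404 CPM in Shp2f/fLysMcre TAMs, so the groups overlapped, and without TAM Shp2f/f replicate 3 its value went from -2.19 to -0.81 and no longer passed (adjusted p = 0.31, edgeR). Pts, the gene of the second enzyme of synthesis, was at 19.5 to 21.8 CPM in Shp2f/f and at 24.3 to 25.3 CPM in Shp2f/fLysMcre TAMs, and it rose (log2 fold change 0.22 ± 0.05 SE, adjusted p = 0.0042, edgeR). In MDSCs, none of 5 was called. Pcbd1 is outside the rule for named genes and was named after its value was seen.

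Of 8 other carriers of cationic amino acids, 7 were tested in TAMs, of which 2 passed as higher and 3 as lower (median -0.57), beside 23.9% and 26.3% of all genes tested. Slc7a1, the gene of the constitutive arginine carrier CAT1, was at 131 to 143 CPM in Shp2f/f and at 67.7 to 75.1 CPM in Shp2f/fLysMcre TAMs, and it fell (log2 fold change -0.97 ± 0.05 SE, adjusted p = 7.9e-08, edgeR). Its direction was thus opposite to that of Slc7a2. The ratio of Slc7a2 to Slc7a1 per length was 0.065 ± 0.0021 in Shp2f/f and 0.274 ± 0.0238 in Shp2f/fLysMcre TAMs (SD, n = 3), with no overlap. Slc7a6 (-0.57) also fell, whereas Slc7a7 (0.31) and Slc3a2 (0.26) rose. Slc25a29, at low level, was the other gene called lower (0.414, 0.339 and 1.009 CPM against 0.184 to 0.291 CPM). Its value went from -1.26 to -0.61 without TAM Shp2f/f replicate 3 (adjusted p = 0.26, edgeR), and the call was also lost without any 1 of the Shp2f/fLysMcre libraries. In MDSCs, none of 7 carriers was called, and the genotype effect on Slc7a1 differed between the cell types (interaction -1.22 ± 0.16 SE, adjusted p = 0.00049, edgeR). Slc3a2 and Slc25a29 were named after their values were seen.

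Of 14 genes of polyamine synthesis and turnover, 13 were tested in TAMs, of which 5 passed as higher and 5 as lower (median -0.01), beside 23.9% and 26.3% of all genes tested. The synthases that act after Odc1 fell. Srm (spermidine synthase) was at 73.7 to 77.7 CPM in Shp2f/f and at 36.7 to 42.7 CPM in Shp2f/fLysMcre TAMs, and Sms (spermine synthase) at 38.6 to 41.1 CPM and 25.0 to 26.5 CPM. The groups did not overlap for either, with log2 fold changes of -0.95 ± 0.05 and -0.67 (adjusted p = 1.6e-07 and 7.8e-07, edgeR). Amd1 (-0.34), whose enzyme supplies both synthases, also fell, as did Eif5a (-0.45), which encodes the factor that carries the spermidine-derived residue hypusine. Dohh (-0.25), whose enzyme completes hypusine, was called lower although its groups overlapped, and the call was lost when any 1 of 4 libraries was left out (-0.17 to -0.23). Sat1, the gene of the acetyltransferase that starts polyamine breakdown, rose from 253 to 258 CPM to 384 to 429 CPM (log2 fold change 0.63 ± 0.04 SE, adjusted p = 7.7e-07, edgeR). The oxidase genes Paox (0.61) and Smox (0.17) rose too. Of the regulators of the Odc1 protein, Azin1 (0.37), an inhibitor of antizymes, and the antizyme gene Oaz2 (0.26) rose. The genes other than Srm, Sms and Sat1 were named after their values were seen. In MDSCs, none of the 13 was called, and the effect differed between the cell types for Srm, Sms and Sat1 (interactions -0.80, -0.89 and 0.90).

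Of 5 genes that convert ornithine, glutamate and proline, 4 fell in TAMs, where 26.3% of all genes tested did, and 0 rose, where 23.9% did (median -0.65). Aldh18a1, which encodes the enzyme that commits glutamate to proline and ornithine synthesis, had a log2 fold change of -0.65, and Pycrl, a pyrroline-5-carboxylate reductase gene, had one of -0.43. Prodh, the gene of the proline dehydrogenase that breaks proline down, fell as well (-0.77), as did Pycr1 (-1.55), which was named after its value was seen. Pycr1 was at low level, at 2.07, 1.67 and 3.57 CPM in Shp2f/f and 0.772 to 1.03 CPM in Shp2f/fLysMcre TAMs. The highest of these was TAM Shp2f/f replicate 3. Oat, which encodes ornithine aminotransferase, the first step from ornithine toward proline, did not pass (-0.08). In MDSCs, none of the 5 was called.

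The soluble guanylyl cyclase that senses nitric oxide and its kinase, with 4 genes, were below the count filter in both cell types. Of the rest of the urea cycle, none of 3 genes was tested in TAMs and 1 was tested in MDSCs. Among 5 genes of other arginine uses, 4 were tested in TAMs, of which 1 was called lower, Gatm (-0.25), the first enzyme of creatine synthesis, a call lost without TAM Shp2f/f replicate 2 (-0.18). Among 5 genes of other nitric oxide synthases and their binding proteins, 3 were tested in TAMs and 2 were called higher, Nosip (0.16) and Nos1ap (0.42), the latter named after its values were seen. Nosip lost its call without any 1 of 5 libraries (0.09 to 0.18), and Nos1ap without any 1 of 4 (0.31 to 0.46). Nos1 and Nos3 did not pass the count filter in TAMs. Nosip no longer passed with scaling by total counts (0.06).

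Of 14 receptors and transcription factors known to act on Nos2 or Arg1, 12 rose in TAMs, where 23.9% of all genes tested did, and 1 fell, where 26.3% did (median 0.37). Pparg, the gene of a nuclear receptor that acts with IL-4 signals, was at 8.27 ± 0.461 CPM in Shp2f/f and at 19.1 ± 0.829 CPM in Shp2f/fLysMcre TAMs (SD, n = 3), with no overlap (log2 fold change 1.17, adjusted p = 1.8e-07, edgeR). Tlr4, the receptor of bacterial lipopolysaccharide, was at 46.1 to 51.6 CPM and at 92.8 to 112 CPM (log2 fold change 1.04, adjusted p = 5.2e-07, edgeR). Il4ra, the receptor chain of IL-4 and IL-13, was at 908 to 923 CPM and at 1589 to 1703 CPM (log2 fold change 0.83, adjusted p = 1.6e-08, edgeR). Known regulators of Nos2 and of Arg1 were thus both among those that rose. Whether they bear on the levels of Nos2 and Arg1 here was not tested. Nfkb1 (-0.16) was the 1 that fell, and was named after its value was seen. None of the 14 was called in MDSCs, where the median was -0.21. The effect differed between the cell types for 11 of the 14, all higher in TAMs, where 12.2% of all genes tested were (12.7% were lower).

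**Figure D4:**
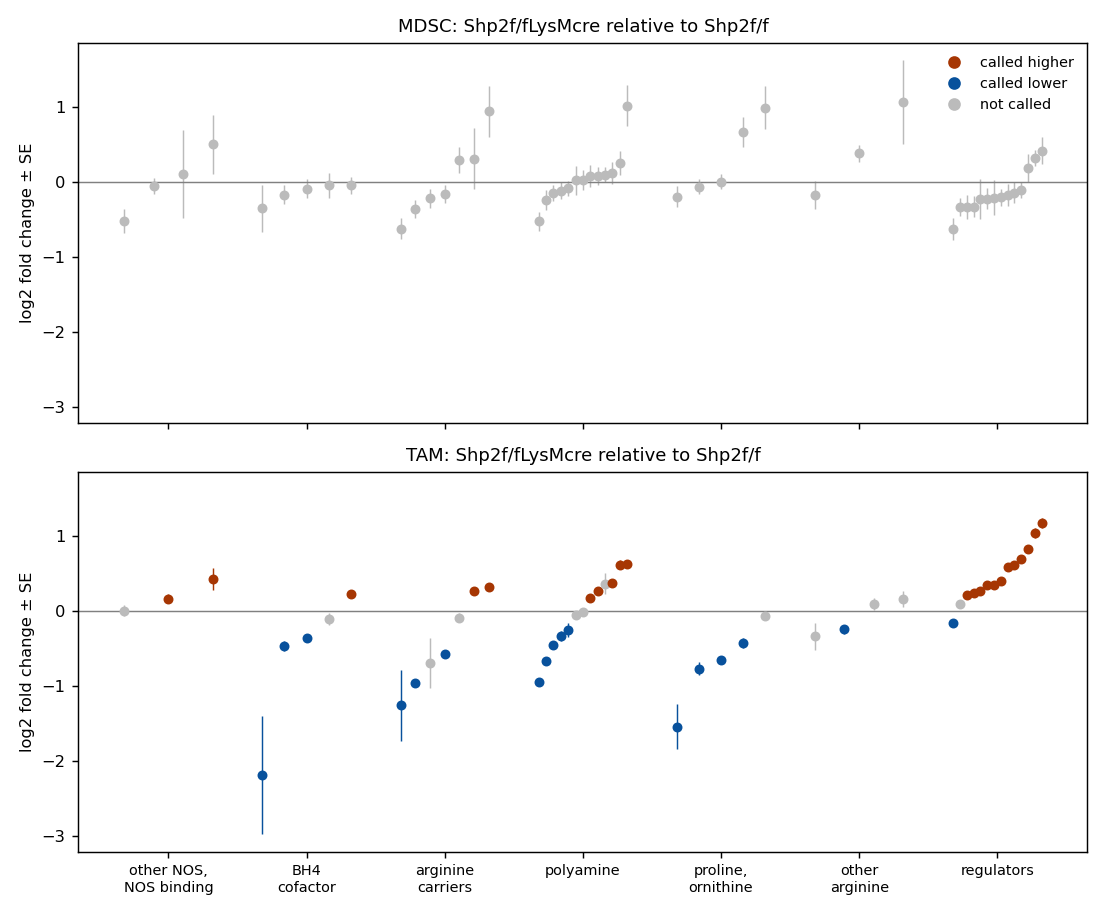
Log2 fold change of Shp2f/fLysMcre relative to Shp2f/f with its standard error for the tested genes of 7 related lists, in MDSCs (upper panel) and TAMs (lower panel), each list sorted by value. Orange points were called higher, blue points lower and grey points not called. In TAMs 12 of 14 regulators are orange and 4 of 5 proline and ornithine genes are blue, and in MDSCs no point is coloured.

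The genes whose pattern over the 10 libraries was most like that of Nos2 and Arg1 were sought among 8848 genes by Pearson's r of log2 CPM. The libraries fall into 2 clusters by cell type, which sets most of this likeness, and the values are a description. For Nos2 the 5 highest were P2ry14 (0.997), a receptor of UDP-sugars, Egln3 (0.996), a hydroxylase of hypoxia-inducible factors, Tmem8, Fads1 and Trp53inp2. Egln3 was at 3.88, 7.86, 19.6 and 52.9 CPM on average in MDSC Shp2f/f, MDSC Shp2f/fLysMcre, TAM Shp2f/f and TAM Shp2f/fLysMcre. For Arg1 they were the ETS-family genes Ets2 (0.9998) and Etv5 (0.9996), followed by Timp2, Csrnp1 and Sel1l3. Etv5 was at 2.11, 2.34, 70.8 and 103 CPM in the same order.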

How the data were processed

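The authors selected poly(A) RNA for strand-specific libraries, read as 42-nt paired ends. They trimmed adapters with Cutadapt 2.5, aligned with STAR 2.7.3a to GRCm38 and counted reads per Ensembl gene with featureCounts of Subread 1.6.2. The deposited raw counts, which are not normalized, were used here. A deposited table of values normalized with DESeq2 1.24.0 was not used.

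Symbols, positions and exon lengths came from GENCODE vM21 (GRCm38), which matched 99.67% of the identifiers. Genes were kept by filterByExpr (minimum count 10), scaled by TMM and tested with the quasi-likelihood F test of edgeR 4.0.16 in R 4.3.3, with Benjamini-Hochberg adjustment over all genes tested. Genotypes were compared within each cell type, with TMM factors of that cell type; the interaction and the contrasts between cell types used all 10 samples, and so did the CPM. Each SE was the absolute log2 fold change divided by the square root of the F statistic. Scripts were tested on simulated counts. The 8 genes and all lists were chosen with earlier results of these data known. Some genes are not reported here and are not counted in the lists. Named genes were Ptpn11, the 8 genes, and in each related list and cell type at most 3 called genes with the largest absolute log2 fold change and a mean of at least 10 CPM. For Nos2 and Arg1 the rule added the 5 genes with the highest correlation.

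Replicate counts differed by a chi-square of 4.63 to 64.5 per degree of freedom, so no library was counted as a duplicate. Alternatives were DESeq2 1.42.0, other scalings and filters, a replicate block, voom (limma 3.58.1), other sets of samples and leaving out each replicate. Depth and replicate number limit MDSC values most. The biological coefficient of variation was 0.189 in MDSCs and 0.0595 in TAMs.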

Additional observations from a re-analysis of the deposited data

Results flagged for a closer look

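The genotype effect differed between TAMs and MDSCs by the interaction test of edgeR for 1 of the 8 genes and for 26 of the 55 related genes tested, where 24.9% of 16581 genes passed, and for Ptpn11. The number of related genes that passed changed with the library left out. The difference on the log2 scale, TAM minus MDSC, was -0.92 for Ptpn11 and 0.95 for Arg2. Among the regulators it was positive for Il4ra (1.49), Tlr4 (1.28), Irf8 (1.07), Pparg (1.01), Cebpb (0.86), Hif1a (0.85), Ifngr1 (0.71), Stat3 (0.57), Stat6 (0.56), Rela (0.35) and Ifngr2 (0.33). Among the carriers it was positive for Slc7a7 (0.97) and Slc3a2 (0.45) and negative for Slc25a29 (-2.17) and Slc7a1 (-1.22). Among the polyamine genes it was positive for Paox (1.17), Sat1 (0.90) and Smox (0.28) and negative for Sms (-0.89), Srm (-0.80) and Eif5a (-0.50). It was negative for Pycr1 (-2.50, a gene at low level), Prodh (-1.41), Aldh18a1 (-0.63) and Gatm (-0.59), and positive for Nostrin (0.55). Groups of 2 or 3 libraries are too small for a test of single libraries that stand apart.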

How the results depend on the processing

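In MDSCs, where 633 genes, 0 of the 8 genes and 0 of the related genes were called, the counts moved most. They were 1256, 1 and 2 with DESeq2 and 2666, 4 and 12 with 1 fit of all 10 samples, and without a filter on low counts 130 genes in all were called. With each replicate left out they ranged from 1 to 4406, from 0 to 2 and from 0 to 17, with the lowest total without either Shp2f/f replicate and the highest without Shp2f/fLysMcre replicate 1. Each of these MDSC fits leaves 1 library in a group, which is assumed to vary like the other group. In TAMs, 7257 genes became 4837 with 1 fit of all 10 samples, and 6176 to 7316 with a replicate left out; the 6 genes stayed 6 and the 39 related genes ranged from 34 to 39. For the interaction, 4131 genes ranged from 2446 to 7026 and the 1 gene called from 1 to 4 with a replicate left out; it was 2 with DESeq2, with total counts and with a minimum count of 50.

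A replicate block raised the MDSC counts to 2674 genes, 2 of the 8 (Nos2 and Odc1) and 10 related genes, and the interaction to 4 of the 8. In TAMs, same-numbered deviations correlated at -0.15 to 0.081 and differently numbered ones at -0.15 to 0.12. In MDSCs, same-numbered deviations correlated at 0.30. With 2 libraries per group the crossed pairs must give the same value with the opposite sign, so this cannot decide on pairing. The interaction fits treated TAM and MDSC libraries as independent, although in the study both cell types were taken from the same mice.

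Directions turned for values near 0 that had not been called: Asl in TAMs (-0.023) and Qdpr (0.0054) and Pts (0.0020) in MDSCs with total counts, and Aldh18a1 in MDSCs without the filter (-0.014). With a replicate left out, values crossed 0 in MDSCs for Ass1 (-0.13 to 0.23), Qdpr (-0.28 to 0.13), Pts (-0.14 to 0.019), Aldh18a1 (-0.089 to 0.063) and Tlr4 (-0.62 to 0.088), and in the interaction for Odc1 (-0.28 to 0.044). The cause was not tested. In TAMs, 48 of 48 values of the 8 genes with a replicate left out kept their call and direction.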

Other observations

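Cps1, which encodes the first enzyme of the urea cycle in liver, had 238 counts (8.75 CPM) in TAM Shp2f/fLysMcre replicate 3 and 0 to 2 counts in each of the other 9 libraries. It was singled out after its values were seen.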
